A study of Mus musculus with 12 samples.

Results

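Progression of a T cell through the G1 phase of the cell cycle was followed here through the RNA of 10 genes, namely the D-type cyclins *Ccnd2* and *Ccnd3*, the E-type cyclins *Ccne1* and *Ccne2*, the cyclin-dependent kinases (CDKs) *Cdk2*, *Cdk4* and *Cdk6*, and the CDK inhibitors *Cdkn1a* (p21), *Cdkn1b* (p27) and *Cdkn2c* (p18). They were picked by name out of the 24439 genes listed for each library, and all 10 were among the 12442 genes that exceeded 1 TPM (a level corrected for gene length and library size) in at least 1 library. In cells kept in IL-2, 8 of the 10 genes had more RNA than in cells deprived of it, and *Cdkn1b* had less. Of all genes tested, 17.3% were higher and 22.3% lower. *Ccnd2* did not pass the test, while the call of *Cdkn1a* lay at the edge of the threshold. These counts place 2 libraries against their sample labels, and by the labels 0 of the 10 genes passed. Brief stimulation lowered *Cdkn1b* whether IL-2 was present or not, to 9.79 TPM from 58.8 TPM with IL-2 and to 11.1 TPM from 207 TPM without it. It raised *Ccnd2* and *Cdkn1a* in both cases. With IL-2 these rises were less firm, passing under 12 and 11 of 16 alternative settings described below.

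The cells were CD4 T blasts, that is, splenic CD4 T cells driven into division in culture, from mice labelled C57BL/6 C42, a transgenic line backcrossed to C57BL/6J that carries a 130-kb piece of human DNA with the *IL3* and *CSF2* genes in all 4 groups. They received 2 µg/ml concanavalin A, a mitogenic lectin, for 40 h and then 50 U/ml IL-2, for 30 h by the methods and 2 days by the sample labels. For the last 16 h the IL-2 was either kept (TB IL-2) or removed (TB IL-2nil), and matching cultures of each kind were stimulated for 2 h with PMA and the calcium ionophore A23187 (PMA/I, at 20 ng/ml and 2 µM), giving TB+ IL-2 and TB+ IL-2nil. Total RNA depleted of ribosomal RNA was sequenced in 3 libraries per group, and nothing says whether these came from separate mice, so the P-values measure only the spread between these 12 libraries.

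The library labelled TB IL-2nil replicate 3 and the library labelled TB+ IL-2 replicate 3 go against their labels, and each was placed in the other's group here, on grounds given with the processing. *Il2*, a gene that T cells transcribe on stimulation, had 3539 TPM in the library labelled TB IL-2nil replicate 3 and 0.997 TPM in the library labelled TB+ IL-2 replicate 3. In the other 10 libraries it ranged from 0 to 4.17 TPM without PMA/I and from 4116 to 8949 TPM with it. *Il2ra*, which encodes a chain of the receptor for IL-2, had 74.4 TPM in the library placed in TB IL-2nil, against 58.6 and 81.0 TPM in the other two libraries of that group. With the libraries grouped by their sample labels instead, 0 of the 10 genes passed for TB IL-2 against TB IL-2nil (limma, 7 at an unadjusted P under 0.05). Of all 12442 genes, only 9 were higher and 6 lower by the labels. Counts of the 10 genes below are therefore also given without both libraries. The 16 alternatives referred to below all keep the placement or leave both libraries out, and the values by the sample labels are given apart from them.

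D-type cyclins bind CDK4 or CDK6 and E-type cyclins bind CDK2, and the active kinases phosphorylate the retinoblastoma (RB) proteins, which releases E2F transcription factors and opens the way into S phase. CDK inhibitors restrain these kinases: p18 belongs to the INK4 type, which binds CDK4 and CDK6, while p21 and p27 belong to the CIP/KIP type, which binds cyclin-CDK complexes. In T cells, IL-2 is the growth factor that carries blasts through G1, and p27 is high in resting cells.

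Libraries differed in depth, which was estimated from the steps between low values, by up to 3.05 times (0.407 to 1.24 of the median), and the shallowest was TB IL-2nil replicate 2. The deposited FPKM values (fragments per kilobase of transcript, relative to library size) were rescaled to TPM and to a common 75th percentile, and every level below is such a scaled TPM, which is corrected for length. The T cell markers *Cd3e*, *Cd3d* and *Cd4* summed to 751 to 772 TPM in TB IL-2, 1175 to 1344 TPM in TB IL-2nil, 612 to 718 TPM in TB+ IL-2 and 857 to 1057 TPM in TB+ IL-2nil, so these genes of the labelled cell type were abundant in all 4 groups. The summed level of 4 B cell markers was 23.2 to 29.6 TPM in TB IL-2nil against 5.94 to 10.4 TPM in TB IL-2, 5.49 to 12.7 TPM in TB+ IL-2nil and 2.36 to 3.31 TPM in TB+ IL-2, so the sums of T and B cell markers both moved with IL-2 and with PMA/I, and their part in the results was not tested. Myeloid markers summed to at most 4.88 TPM and NK cell markers to at most 0.303 TPM, with *Ncr1* listed at 0 in every library, while the CD8 T cell markers *Cd8a* and *Cd8b1* summed to 6.91 to 31.9 TPM with overlapping ranges in the 4 groups. In bulk RNA, a changed share of cells in a phase of the cell cycle and a changed level of RNA per cell cannot be told apart.

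RefSeq promoter sequences (GRCm38.p6, 250 bases before to 50 bases after the start) were at hand for 8 of the 10 genes, as 11 promoters. The 250 bases before the start of *Cdk4*, *Cdk6* and *Cdk2* are shown because *Cdk4* and *Cdk6* moved together over the libraries while *Cdk2* moved with another set of genes. In *Cdk4* and *Cdk6* capitals mark the E-box CACGTG, the letters that MYC with its partner MAX and other factors of that family bind. In *Cdk2* they mark a match on the opposite strand to TTTCCCGC, one of the 4 spellings searched for an E2F site (with TTTCGCGC, TTTGCCGC and TTTGGCGC).
Cdk4 (chr10:127063285-127063534, plus strand): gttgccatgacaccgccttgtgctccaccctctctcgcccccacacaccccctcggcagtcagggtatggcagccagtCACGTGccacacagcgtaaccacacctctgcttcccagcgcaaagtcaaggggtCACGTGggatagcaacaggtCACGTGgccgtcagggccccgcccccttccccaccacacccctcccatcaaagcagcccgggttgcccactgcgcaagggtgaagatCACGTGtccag
Cdk6 (chr5:3343643-3343892, plus strand): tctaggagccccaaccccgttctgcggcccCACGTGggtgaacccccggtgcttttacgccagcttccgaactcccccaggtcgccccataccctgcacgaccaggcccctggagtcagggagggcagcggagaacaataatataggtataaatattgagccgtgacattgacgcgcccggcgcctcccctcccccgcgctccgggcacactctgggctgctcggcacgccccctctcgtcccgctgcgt
Cdk2 (chr10:128705052-128705301, minus strand): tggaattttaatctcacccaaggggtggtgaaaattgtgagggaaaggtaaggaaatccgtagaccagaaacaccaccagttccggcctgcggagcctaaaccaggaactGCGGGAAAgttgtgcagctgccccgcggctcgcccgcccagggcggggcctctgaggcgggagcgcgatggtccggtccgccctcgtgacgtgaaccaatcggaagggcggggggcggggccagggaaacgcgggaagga
The 4 copies of CACGTG in *Cdk4* start at positions -172, -118, -98 and -11 from the transcription start (-1 is the base before it), and 0.0244% of 32851 promoters held 4 or more of them over the same 300 bases, while 7.15% held at least 1. The copy in *Cdk6* starts at -220, and a further copy lies at 34 after 1 of the 2 starts of *Cdkn2c*. An E2F spelling was present in 2.26% of promoters and, among the 11, only in *Cdk2*, at -140. GTAAACA, letters bound by FOXO factors (3.65% of promoters), was found once, in 1 of the 2 promoters of *Ccnd3*. The AP-1 letters TGANTCA (7.81% of promoters) and the STAT letters TTCNNNGAA (8.30%) were found in none of the 11. Both strands were searched, the spellings do not overlap one another in these promoters, and a match describes letters only.

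**Figure D1:**
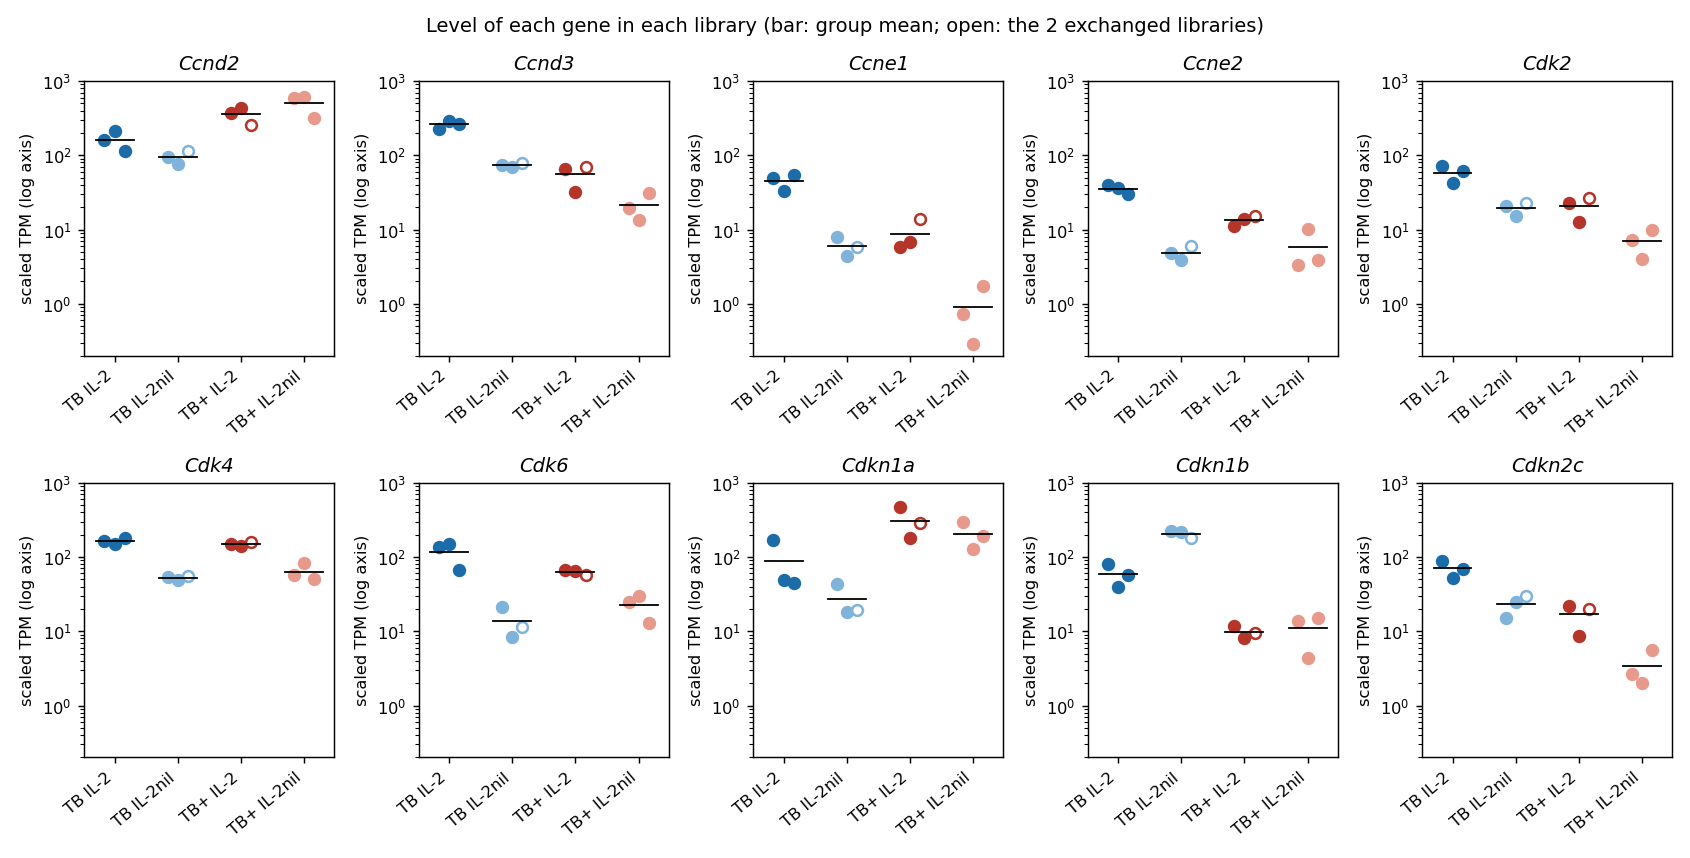
Level of each of the 10 genes in each of the 12 libraries, in scaled TPM on a log axis, by group. Points are libraries (open for the 2 exchanged libraries), and bars are group means. *Cdkn1b* is the gene that stands highest in TB IL-2nil (182 to 222 TPM), whereas *Ccnd2* and *Cdkn1a* stand highest after PMA/I.

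The effect of IL-2 on blasts that were not restimulated was tested between TB IL-2 and TB IL-2nil, by limma on log2(TPM + 1) over all 12442 genes with Benjamini-Hochberg adjustment. All differences are in log2, the first group named minus the second. Of the 10 genes, 8 were higher with IL-2 and 1 was lower at an adjusted P under 0.05, against 17.3% and 22.3% of all genes. At more than 3-fold, 6 were higher and 1 lower, against 4.69% and 2.73% of all genes. The median difference of the 10 genes was 1.61, that of all genes tested -0.13. Without both exchanged libraries 7 were higher and 1 lower, all of them by more than 3-fold, the gene no longer counted being *Cdkn1a*. Of all 12442 genes, 1794 were then higher and 2205 lower. With the replicate number as a block, which pairs the libraries, 9 of the 10 genes were higher and 1 lower, beside 2656 and 3666 of all genes.

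*Ccnd3* (chr17:47642000-47736632, plus strand, mm9) encodes cyclin D3, the D-type cyclin with a known part in expansion of T cell progenitors. Its levels were 228, 293 and 260.0 TPM in TB IL-2 and 75.1, 68.6 and 79.2 TPM in TB IL-2nil, in the order of the replicates. The last value of TB IL-2nil, and below that of TB+ IL-2, is the exchanged library. Every library with IL-2 lay above every library without it, a difference of 1.79 (SE 0.32, limma adjusted P = 0.00153). *Ccnd2* (chr6:127075797-127101066, minus strand), which encodes cyclin D2, had 159, 212 and 116 TPM with IL-2 and 94.6, 75.5 and 114 TPM without it. These ranges nearly touched, and the difference of 0.75 (SE 0.32, limma adjusted P = 0.0834) passed only with the replicate block (adjusted P = 0.0457), with values of 0.0457 to 0.265 over 16 alternatives.

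*Cdk6* (chr5:3343893-3523218, plus strand), the partner kinase of the D-type cyclins that showed the largest fold change of the 10 genes, had 135, 149.7 and 66.3 TPM in TB IL-2. In TB IL-2nil its levels were 21.0, 8.49 and 11.3 TPM. Its difference was 3.02 (SE 0.39, limma adjusted P = 0.000284), or 8.13-fold on the log2(TPM + 1) scale. *Cdk4* (chr10:126500590-126504976, plus strand), the second kinase of this pair, was the gene with the smallest standard error, with 165, 152 and 181 TPM with IL-2 and 53.6, 48.9 and 54.9 TPM without it. Its difference was 1.64 (SE 0.18, limma adjusted P = 0.000133). The promoter of *Cdk4* is the one with 4 E-boxes above.

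*Ccne1* (chr7:38883003-38892553, minus strand) and *Ccne2* (chr4:11118498-11131926, plus strand) encode the cyclins that activate CDK2 at the end of G1. *Ccne1* had 49.4, 32.9 and 54.2 TPM with IL-2 and 7.86, 4.38 and 5.81 TPM without it. *Ccne2* had 39.9, 36.3 and 30.2 TPM with IL-2 and 4.82, 3.92 and 5.97 TPM without it. Both cyclins E were thus among the 3 genes with the largest differences, at 2.73 (SE 0.35, limma adjusted P = 0.000279) and 2.63 (SE 0.31, limma adjusted P = 0.00018). *Ccne2* shares 5622 bp with *Ints8* on the opposite strand, and whether the counting used strand is not given in the sources used here. *Ints8* differed by 0.08 (limma adjusted P = 0.743), and the part of the overlap in the level of *Ccne2* was not tested. *Cdk2* (chr10:128134995-128142107, minus strand), their kinase, had 71.0, 41.8 and 61.1 TPM in TB IL-2 and 20.7, 15.3 and 23.0 TPM in TB IL-2nil, a difference of 1.50 (SE 0.34, limma adjusted P = 0.00542).

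*Cdkn1b* (chr6:134870419-134875531, plus strand) went the other way. It had 79.3, 39.9 and 57.2 TPM in TB IL-2 and 222, 216 and 182 TPM in TB IL-2nil, so the highest library with IL-2 had less than the lowest without it. Its difference was -1.85 (SE 0.38, limma adjusted P = 0.00355), a 3.59-fold lower level with IL-2. *Cdkn2c* (chr4:109333481-109339794, minus strand), the INK4 inhibitor, rose with IL-2 like the kinases it binds, from 14.9, 24.4 and 30.2 TPM to 89.2, 52.5 and 69.8 TPM. Its difference was 1.59 (SE 0.39, limma adjusted P = 0.009), only just past the 3-fold line. *Cdkn1a* (chr17:29227924-29237667, plus strand), a target of p53 among other factors, had 169, 48.6 and 44.6 TPM with IL-2 and 43.7, 17.9 and 19.1 TPM without it. One library, TB IL-2 replicate 1, made up most of the higher mean, and the difference was 1.50 (SE 0.55, limma adjusted P = 0.0496). Without that library it was 0.89 (adjusted P = 0.171), and it passed under 6 of 16 alternatives (adjusted P 0.000688 to 0.171). It also missed the threshold without TB IL-2 replicate 2 (adjusted P = 0.0542), without TB IL-2nil replicate 2 (0.145) and without the library labelled TB+ IL-2 replicate 3 (0.134).

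**Figure D2:**
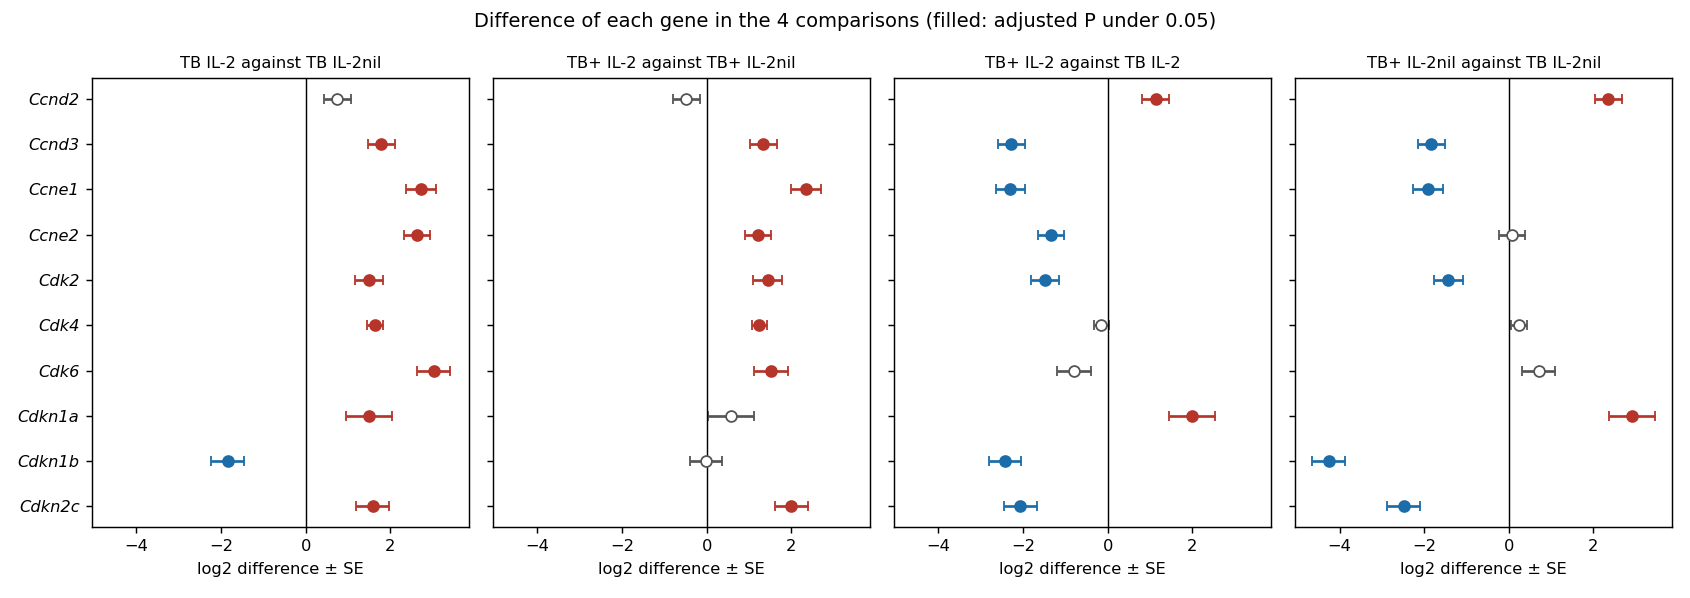
Log2 difference with its standard error for each of the 10 genes (rows) in the 4 comparisons of 2 groups (panels), filled where the adjusted P is under 0.05. With IL-2 and no PMA/I, 8 genes lie to the right of 0 and pass, and *Cdkn1b* lies to the left. In both PMA/I panels *Ccnd2* and *Cdkn1a* lie to the right and *Cdkn1b*, *Ccnd3*, *Ccne1*, *Cdk2* and *Cdkn2c* to the left.

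Between the stimulated groups, TB+ IL-2 and TB+ IL-2nil, 7 of the 10 genes were higher with IL-2 and 0 were lower, against 12.9% and 8.40% of all genes (60.5% of the calls higher, 96.1% with no further scaling). The median difference was 1.29, that of all genes -0.04. The 7 were *Ccnd3*, both cyclins E, the 3 kinases and *Cdkn2c*. *Ccne1* had 5.77, 6.90 and 13.8 TPM in TB+ IL-2 and 0.723, 0.286 and 1.73 TPM in TB+ IL-2nil, the lowest level of any of the 10 genes in any group. Its difference of 2.34 (SE 0.35, limma adjusted P = 0.00136) was understated by the pseudocount of 1 TPM, and with 0.1 TPM it was 3.31. *Cdk4* had 152, 139.7 and 157 TPM against 57.3, 83.2 and 50.5 TPM, a difference of 1.25 (SE 0.18, limma adjusted P = 0.00114). *Cdkn2c* had 22.0, 8.74 and 19.9 TPM against 2.65, 2.02 and 5.56 TPM, a difference of 2.01 (SE 0.39, limma adjusted P = 0.00545). The other 4 differences were 1.34 for *Ccnd3*, 1.21 for *Ccne2*, 1.44 for *Cdk2* and 1.52 for *Cdk6*, with limma adjusted P-values of 0.0133, 0.0192, 0.0128 and 0.0196.

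The 3 genes that did not pass in stimulated cells were *Ccnd2*, *Cdkn1a* and *Cdkn1b*. *Cdkn1b* had 11.8, 8.06 and 9.51 TPM in TB+ IL-2 and 13.6, 4.34 and 15.2 TPM in TB+ IL-2nil. These ranges overlapped, with a difference of -0.02 (SE 0.38, limma adjusted P = 0.985), beside the -1.85 between the groups that were not stimulated. *Ccnd2* differed by -0.48 (SE 0.32, limma adjusted P = 0.311) and *Cdkn1a* by 0.58 (SE 0.55, limma adjusted P = 0.492). Without both exchanged libraries *Ccne1*, *Cdk4* and *Cdkn2c* still passed and the other 4 had adjusted P-values of 0.0718 to 0.0905. Of all 12442 genes, 863 were then higher and 334 lower. The count of the 10 genes was also 3 without the library labelled TB IL-2nil replicate 3 alone, and 4 when only the 2 groups compared were fitted. Over all genes these 2 fits gave 1014 higher and 417 lower, and 1015 higher and 488 lower. *Ccne2* missed the threshold without TB+ IL-2 replicate 2 or TB+ IL-2nil replicate 1 or 3 (adjusted P 0.0563 to 0.0785), and *Cdk6* without TB+ IL-2 replicate 2 (0.0581) or TB+ IL-2nil replicate 3 (0.0619).

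Stimulation for 2 h with PMA/I, which stands in for signalling through the T cell receptor, was tested with IL-2 present (TB+ IL-2 against TB IL-2) and without it (TB+ IL-2nil against TB IL-2nil). With IL-2, 2 of the 10 genes were higher and 6 lower after PMA/I, against 11.8% and 23.3% of all genes, with a median difference of -1.41 (all genes -0.22). At more than 3-fold, 1 was higher (3.94% of all genes) and 4 were lower (3.10%). Without IL-2, 2 were higher and 5 lower, against 20.1% and 41.1% of all genes, so the share that fell was not far above that of all genes, and the median was -0.67 (all genes -0.38). At more than 3-fold, 2 were higher (7.78% of all genes) and 4 lower (10.7%). Without both exchanged libraries the counts were 1 higher and 6 lower with IL-2, where *Cdkn1a* was lost (adjusted P = 0.0507), and 2 higher and 5 lower without IL-2. At more than 3-fold they were then 0 higher and 5 lower with IL-2 and 2 higher and 4 lower without it. Of all 12442 genes, 1368 were higher and 2452 lower in this fit with IL-2, and 2215 and 4430 without it. By the sample labels 2 of the 10 genes passed with IL-2 (*Ccnd3* and *Ccne1*, lower) and 4 without it (these, *Cdk2* and *Cdkn2c*, lower). By the labels 30 of all genes were higher and 32 lower with IL-2, and 239 and 430 without it. *Cdkn1b* did not pass there by the labels (-1.06, adjusted P = 0.765, and -2.88, adjusted P = 0.153). These comparisons share their TB IL-2 and TB IL-2nil libraries with the comparison above, so their values are set side by side and not correlated.

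*Cdkn1b* fell in both cases. From 79.3, 39.9 and 57.2 TPM in TB IL-2 it went to 11.8, 8.06 and 9.51 TPM in TB+ IL-2, a difference of -2.43 (SE 0.38, limma adjusted P = 0.000796). From 222, 216 and 182 TPM in TB IL-2nil it went to 13.6, 4.34 and 15.2 TPM in TB+ IL-2nil, a difference of -4.26 (SE 0.38, limma adjusted P = 7.09e-06) or 19.1-fold, the largest of any of the 10 genes in any comparison. *Cdkn2c* fell as well, to 22.0, 8.74 and 19.9 TPM with IL-2 and 2.65, 2.02 and 5.56 TPM without it. Its differences were -2.06 (SE 0.39, limma adjusted P = 0.00244) and -2.48 (SE 0.39, limma adjusted P = 0.000274). *Cdkn1a* was the inhibitor that rose. Its levels after PMA/I were 466, 181 and 283 TPM with IL-2 and 293, 129 and 189 TPM without it. Each of these lay above every library of the matching group without PMA/I. The differences were 1.99 (SE 0.55, limma adjusted P = 0.0165) and 2.91 (SE 0.55, limma adjusted P = 0.000848). The first passed under 11 of 16 alternatives (adjusted P 0.000181 to 0.0686, missed without TB IL-2 replicate 2 or 3 or TB+ IL-2 replicate 1 among others), the second under all 16 but not by the sample labels (1.64, adjusted P = 0.336).

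The D-type cyclins went opposite ways. *Ccnd2* rose to 376, 437 and 253 TPM with IL-2, a difference of 1.13 (SE 0.32, limma adjusted P = 0.0178). It no longer passed without TB IL-2 replicate 3, without TB+ IL-2 replicate 1 or 2, or under quantile normalization (adjusted P 0.0553 to 0.073). Without IL-2 it rose to 586, 612 and 313 TPM, a difference of 2.36 (SE 0.32, limma adjusted P = 9.04e-05). *Ccnd3* fell to 65.3, 32.1 and 68.7 TPM with IL-2 and 19.7, 13.5 and 30.8 TPM without it. Its differences were -2.28 (SE 0.32, limma adjusted P = 0.00036) and -1.83 (SE 0.32, limma adjusted P = 0.000479). In stimulated cells cyclin D2 RNA was thus the more abundant of the pair in every library, as described with the ratios below.

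*Ccne1* and *Cdk2* fell in both cases. The differences of *Ccne1* were -2.30 (SE 0.35, limma adjusted P = 0.000666) with IL-2 and -1.92 (SE 0.35, limma adjusted P = 0.00071) without it. Those of *Cdk2* were -1.49 (SE 0.34, limma adjusted P = 0.00617) and -1.43 (SE 0.34, limma adjusted P = 0.00352). With the pseudocount of 0.1 TPM the difference of *Ccne1* without IL-2 was -2.83. *Ccne2* fell with IL-2, from 39.9, 36.3 and 30.2 TPM to 11.3, 13.7 and 15.3 TPM, a difference of -1.34 (SE 0.31, limma adjusted P = 0.00721). Without IL-2 it was already low, and its difference was 0.08 (SE 0.31, limma adjusted P = 0.835), with libraries of TB+ IL-2nil at 3.35, 10.2 and 3.86 TPM. The kinases of the D-type cyclins did not pass in either case. *Cdk4* differed by -0.15 (SE 0.18, limma adjusted P = 0.558) with IL-2 and by 0.24 (SE 0.18, limma adjusted P = 0.262) without it, and *Cdk6* by -0.80 (SE 0.39, limma adjusted P = 0.138) and 0.70 (SE 0.39, limma adjusted P = 0.14). *Cdk6* passed with IL-2 when TB IL-2 replicate 3 was left out (-1.16, adjusted P = 0.049), and without IL-2 when TB IL-2nil replicate 1 or TB+ IL-2nil replicate 3 was (both 1.05, adjusted P = 0.042 and 0.0404). Under median-of-ratios scaling both kinases passed without IL-2, *Cdk4* at 0.64 (adjusted P = 0.0136) and *Cdk6* at 1.08 (adjusted P = 0.0347). Of all genes that passed, 33.6% were higher with IL-2 (46.4% under quantile normalization and 53.3% under median-of-ratios scaling) and 32.8% without it (43.5%, 49.8%, and 17.6% with no further scaling). The directions given here for *Cdk4* in both cases and for *Ccne2* without IL-2 flip under other scalings or filters, and the median of all genes shifts by up to 0.301 upward or 0.396 downward in log2 with the scaling of the comparison without IL-2. Relative to the median of all genes in the same fit, the falls of *Cdkn1b*, *Ccnd3*, *Ccne1*, *Cdk2* and *Cdkn2c* remained, and they passed under the 16 alternatives in both comparisons, while by the sample labels 2 of these 5 passed with IL-2 and 4 without it.

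Whether PMA/I acted differently with and without IL-2 was tested as the interaction, the PMA/I difference with IL-2 minus that without it. None of the 10 genes passed (limma, 0 at an adjusted P under 0.05 and 4 at an unadjusted P under 0.05), against 1.57% of all genes higher and 2.66% lower (37.1% of the calls higher, 22.6% under median-of-ratios scaling and 0% of 1 call with no further scaling). The 4 were *Cdkn1b*, *Ccne2*, *Ccnd2* and *Cdk6*. For *Cdkn1b* the interaction was 1.83 (SE 0.54, limma adjusted P = 0.0825), and with the replicate block it was 1.83 with an adjusted P of 0.0281. With the block 1 of the 10 genes thus passed, beside 760 of all 12442 genes higher and 718 lower. *Ccne2* had -1.42 (SE 0.44, limma adjusted P = 0.0925), *Cdk6* -1.50 (SE 0.55, limma adjusted P = 0.14) and *Ccnd2* -1.22 (SE 0.45, limma adjusted P = 0.138). Leaving out TB+ IL-2nil replicate 3 let 2 pass (*Cdkn1b* and *Ccnd2*), as did quantile normalization (*Cdkn1b* and *Ccne2*), and without both exchanged libraries 0 passed. Over all genes these 3 fits gave 664 higher and 650 lower, 232 and 477, and 3 and 1.

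Ranked by their mean level, 7 of the 10 genes were highest in TB IL-2, and the order of the genes changed between groups. In TB IL-2 *Ccnd3* led with 260.3 ± 32.1 TPM (SD, n = 3), followed by *Cdk4* (166 ± 14.8 TPM), *Ccnd2* (162 ± 48.2 TPM) and *Cdk6* (117 ± 44.4 TPM), and beyond *Ccnd3* every neighbour in the order overlapped with the next, down to *Ccne2* (35.5 ± 4.91 TPM). In TB IL-2nil *Cdkn1b* led with 207 ± 21.5 TPM, apart from *Ccnd2* at 94.8 ± 19.4 TPM. After PMA/I *Ccnd2* led, with 355 ± 94.1 TPM in TB+ IL-2, where *Cdkn1a* (309.9 ± 144 TPM) overlapped with it, and 504 ± 165 TPM in TB+ IL-2nil, where *Cdkn1a* (204 ± 82.7 TPM) did not. *Cdk4* was the third gene in both stimulated groups, clear of its neighbours, and *Ccne1* was last in both, at 8.81 ± 4.32 TPM and 0.913 ± 0.740 TPM.

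Ratios within 1 library do not depend on the scaling between libraries. The ratio of *Ccnd3* to *Ccnd2* was 1.44, 1.38 and 2.25 in TB IL-2 and 0.794, 0.909 and 0.694 in TB IL-2nil. It was 0.174, 0.0735 and 0.272 in TB+ IL-2 and 0.0336, 0.0221 and 0.0983 in TB+ IL-2nil. Cyclin D3 RNA was thus the more abundant in all 3 libraries of TB IL-2 only, and the groups without PMA/I did not overlap with each other or with either stimulated group. *Cdkn1b* made up 23.5, 28.3 and 33.3% of the summed level of the 3 inhibitors in TB IL-2 and 79.1, 83.6 and 78.7% in TB IL-2nil. After PMA/I its share was 2.36, 4.07 and 3.05% with IL-2 and 4.41, 3.19 and 7.26% without it, and *Cdkn1a* supplied most of the rest. The ratio of *Cdk6* to *Cdk4* (0.814, 0.988 and 0.366 in TB IL-2, 0.392, 0.174 and 0.205 in TB IL-2nil) and that of *Ccne1* to *Ccne2* (1.24, 0.908 and 1.79 and 1.63, 1.12 and 0.974) overlapped between these groups, so 2 of these 4 ratios separated them. A further ratio, of *Ccnd2* and *Ccnd3* together to *Cdkn1b*, was 4.88, 12.7 and 6.57 in TB IL-2 and 0.764, 0.667 and 1.06 in TB IL-2nil and separated them too. After PMA/I it was 37.4, 58.2 and 33.8 with IL-2 and 44.5, 144 and 22.6 without it, above every library without PMA/I. In TB+ IL-2nil the ratio of *Ccne1* to *Ccne2* was down to 0.216, 0.0280 and 0.448, below the 0.502 to 0.897 of TB+ IL-2.

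**Figure D3:**
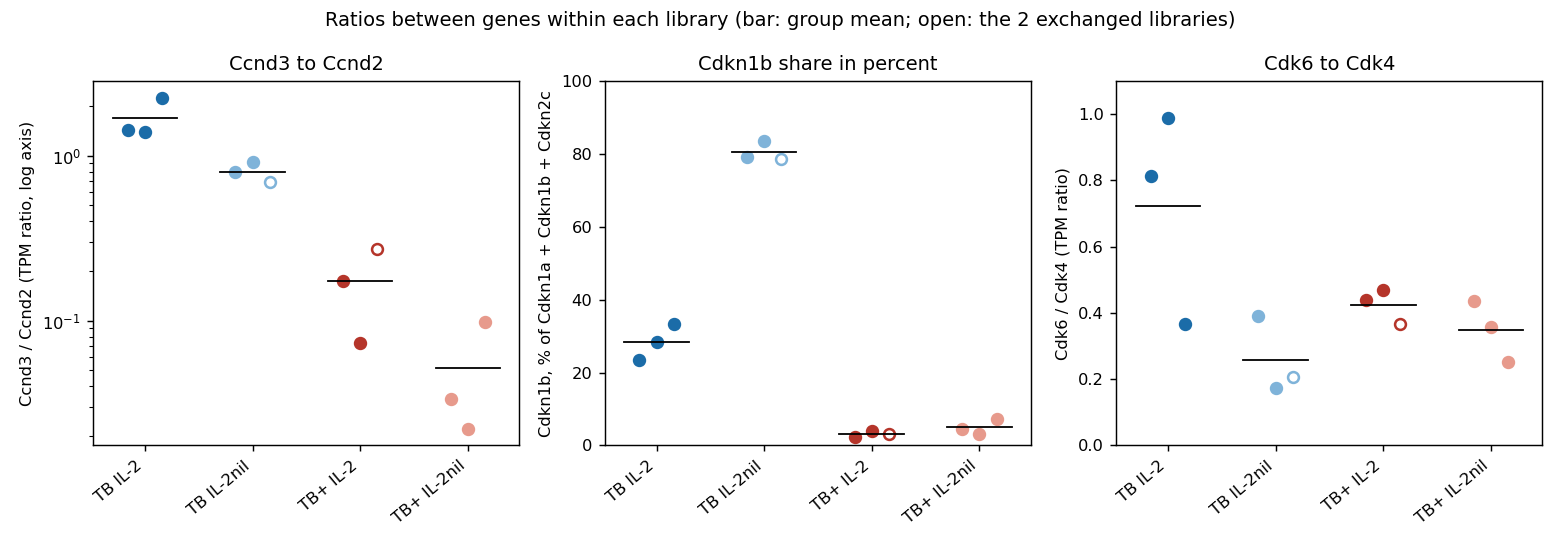
Ratio of *Ccnd3* to *Ccnd2* (log axis), share of *Cdkn1b* among the 3 CDK inhibitors in percent, and ratio of *Cdk6* to *Cdk4*, within each library and by group, with the group mean as a bar and open points for the 2 exchanged libraries. The share of *Cdkn1b* lies at 78.7% to 83.6% in TB IL-2nil and at no more than 7.26% after PMA/I.

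Over the 12 libraries the 10 genes fell into sets that moved together on the log2 scale. These correlations describe 12 points that share 4 groups, and the values of 1 library share its depth and scaling. *Ccnd3*, *Ccne1*, *Cdk2* and *Cdkn2c* had Pearson's r of 0.928 to 0.97 with one another. *Cdk4*, *Cdk6* and *Ccne2* had r of 0.906 to 0.921, and *Cdk4* had r = 0.604 with *Cdk2*. These 2 sets were not sharply apart. With the genes of the first set *Cdk4* and *Cdk6* had r of 0.462 to 0.697, and *Ccne2* had r of 0.669 to 0.814, the highest with *Ccne1*. *Ccnd2* went with *Cdkn1a* (r = 0.794) and against *Cdkn1b* (r = -0.933). Among other genes with a mean of at least 5 TPM, those most like each member were *Nup155* (r = 0.992), *Dctpp1* and *Nup205* for *Cdk4*, *Tcf19* (r = 0.99), *Drosha* and *Pola2* for *Cdk2*, and *Hn1l* (r = 0.969), *Nefh* and *Myo5a* for *Cdk6*. For the cyclins they were *Nat10* (r = 0.985), *Thap4* and *Cnbp* for *Ccnd2*, *Ptp4a3* (r = 0.982), *Sema4a* and *Fam111a* for *Ccnd3*, *Rmi2* (r = 0.987), *Timeless* and *Map6* for *Ccne1*, and *Sac3d1* (r = 0.98), *Ints2* and *Tmem209* for *Ccne2*. For the inhibitors they were *Gba2* (r = 0.993), *Kctd2* and *2010315B03Rik* for *Cdkn1b*, *Psme2* (r = 0.953), *Trim16* and *Arhgap21* for *Cdkn1a*, and *Anapc11* (r = 0.982), *Sema4a* and *Wdr76* for *Cdkn2c*.

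Other genes of the cell cycle were counted by list, to be read against the shares of all genes given above. The median differences for TB IL-2 against TB IL-2nil were 1.72 for genes acting on CDKs, 1.28 for the E2F and RB family, 0.70 for other cyclins, CDKs and inhibitors and -0.49 for upstream regulators, beside -0.13 for all genes. Of 15 S phase genes, 14 were higher in TB IL-2 than in TB IL-2nil, all by more than 3-fold, with a median difference of 2.63 (also 14 without both exchanged libraries). *Rrm2*, a subunit of ribonucleotide reductase, led with 3.62 (limma adjusted P = 6.65e-05), ahead of *Cdc6*, which loads the replicative helicase (3.59), and the helicase subunits *Mcm5* (3.19) and *Mcm2* (3.16), with limma adjusted P-values of 3.83e-05, 6.47e-05 and 3.14e-05. The same count, 14 of 15, was higher in TB+ IL-2 than in TB+ IL-2nil (13 without both exchanged libraries). After PMA/I with IL-2, 2 of the 15 were lower and 0 higher (6 lower without both exchanged libraries), and without IL-2, 7 were lower and 1 higher (5 and 1). Of all genes, 23.3% were lower and 11.8% higher with IL-2, and 41.1% and 20.1% without it. Most genes of DNA replication thus passed with IL-2 in stimulated cells too, as 7 of the 10 genes of G1 did.

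The E2F and RB family had 9 of 13 genes higher and 1 lower in TB IL-2 (8 and 0 without both exchanged libraries). *E2f8* (3.31), *E2f7* (2.97), *E2f1* (2.64) and *Tfdp1* (2.25), which encodes a dimer partner of E2F1, had the largest differences (limma adjusted P 2.78e-05 to 0.000275). *Rbl2*, which encodes the RB relative p130 of quiescent cells, was the gene that was lower, at -1.39 (SE 0.42, limma adjusted P = 0.022), and *Rb1* was -0.58 (SE 0.29, limma adjusted P = 0.139). After PMA/I the family had 1 higher and 6 lower with IL-2 and 4 higher and 7 lower without it (1 and 6, and 4 and 6, without both exchanged libraries). Of all genes, 11.8% were higher and 23.3% lower with IL-2, and 20.1% and 41.1% without it. *Rbl2* fell after PMA/I in both cases, at -1.45 and -2.34 (limma adjusted P = 0.0207 and 0.000621). *E2f1* had -0.39 and -0.68 there and did not pass.

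Of 13 genes that act on CDKs directly or turn their inhibitors over, 7 were higher and 1 lower in TB IL-2, with the same counts without both exchanged libraries. The largest were *Dtl* (3.35) and *Cks1b* (2.46), which take part in degradation of p21 and p27, and the inhibitory kinases *Pkmyt1* (2.49) and *Wee1* (2.04), with limma adjusted P-values of 0.000114, 0.0015, 0.000141 and 0.000177. The gene that was lower was *Rnf123*, at -0.89 (SE 0.22, limma adjusted P = 0.00951). *Cul1* (0.18) and *Skp1a* (0.01) of the same list did not pass (limma adjusted P = 0.459 and 0.981). *Skp2*, the receptor of the ubiquitin ligase for p27, had 14.7, 9.86 and 8.66 TPM in TB IL-2 and 2.96, 1.38 and 1.76 TPM in TB IL-2nil, a difference of 1.99 (SE 0.25, limma adjusted P = 0.000266). It fell after PMA/I, at -1.42 with IL-2 and -0.96 without it (limma adjusted P = 0.00163 and 0.00688). In TB+ IL-2nil it had 0.271, 0.895 and 0.470 TPM, so the second difference was understated by the pseudocount of 1 TPM. *Cdc25a*, a phosphatase that activates CDK2, was higher in TB IL-2 by 1.72 (SE 0.24, limma adjusted P = 0.000423) and did not pass after PMA/I (-0.39 and 0.36).

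Of 16 other cyclins, CDKs and inhibitors, 14 passed the filter, of which 4 were higher and 2 lower in TB IL-2 (3 and 2 without both exchanged libraries), beside 17.3% and 22.3% of all genes. After PMA/I 0 were higher in either case, and 3 were lower with IL-2 and 6 without it (2 and 5 without both exchanged libraries). Of all genes, 23.3% were lower with IL-2 and 41.1% without it, so the shares of the list that fell were close to these. In TB IL-2 the mitotic kinase *Cdk1* (2.48), its partner *Ccna2* (2.46) and *Ccnf* (2.19) were higher (limma adjusted P = 0.013, 0.0158 and 0.00223), and *Ccng2*, a cyclin of arrested cells, was lower at -1.79 (SE 0.43, limma adjusted P = 0.00763). The other gene counted as higher was the inhibitor *Cdkn2a*, at 1.60 (SE 0.48, limma adjusted P = 0.0212). Between the stimulated groups *Cdkn2a* differed by 2.16 (limma adjusted P = 0.00969). The other gene counted as lower was *Mnat1*, at -0.69 (limma adjusted P = 0.0217). *Ccna2* was spread widely in TB IL-2nil, at 8.72, 55.7 and 55.8 TPM, beside 148, 166 and 208 TPM in TB IL-2. *Ccng2* fell after PMA/I like *Cdkn1b*, at -2.02 with IL-2 and -4.08 without it (limma adjusted P = 0.0044 and 1.8e-05). *Ccnd1*, the third D-type cyclin, had at most 1.63 TPM in any library. *Cdkn2d*, which encodes p19, is listed at 0 in every library.

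Of 10 regulators known to act upstream, 3 were higher and 4 lower in TB IL-2, also without both exchanged libraries. *Cish* and *Socs1*, feedback inhibitors of cytokine signalling, were higher by 3.59 and 2.03 and *Myc* by 2.48, while *Bcl6* was lower at -2.24 (limma adjusted P = 0.00018, 0.00434, 0.0025 and 0.0181). The other genes counted as lower were *Foxo3*, *Klf2* and *Stat5b*, at -0.74, -1.16 and -0.95 (limma adjusted P = 0.00358, 0.0114 and 0.00304). *Foxo1*, a factor that activates *Cdkn1b* when growth factors are withdrawn, was -0.66 (SE 0.30, limma adjusted P = 0.103) and so did not pass, unlike *Foxo3* of the same family. The activity of these factors was not measured. *Myc* had 40.2, 170.3 and 180.3 TPM in TB IL-2 and 14.8, 14.4 and 29.2 TPM in TB IL-2nil. After PMA/I it had 757, 697 and 574 TPM with IL-2 and 1665, 1465 and 1680.0 TPM without it. Of the 4 groups, TB+ IL-2nil had the highest *Myc*. *Cdk4* and *Cdk6* were at 63.7 and 22.6 TPM in that group, below their levels in both groups with IL-2. Whether *Myc* bears on the levels of *Cdk4* and *Cdk6* was not tested.

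**Figure D4:**
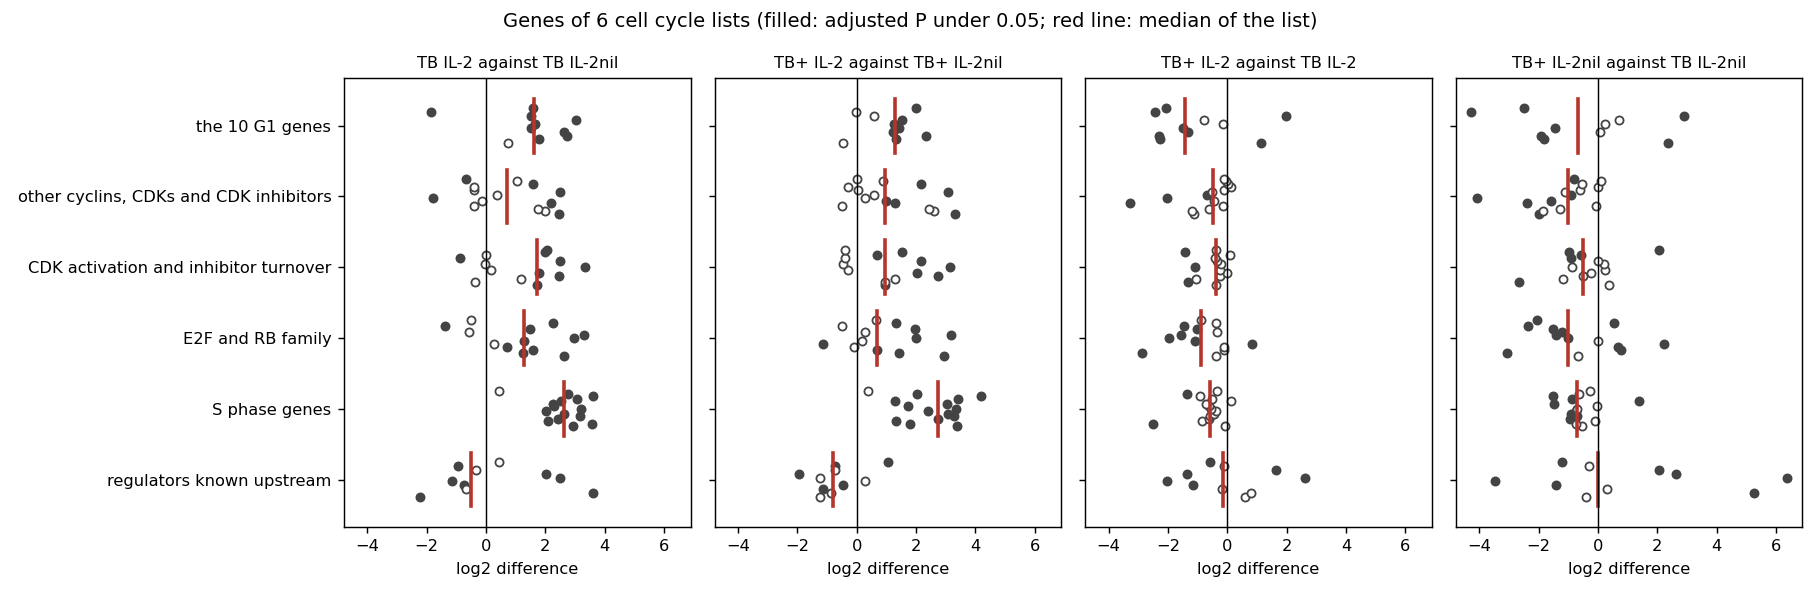
Log2 difference of every gene of 6 lists in the 4 comparisons of 2 groups, filled where the adjusted P is under 0.05, with the median of each list as a red line. The S phase genes have medians of 2.63 and 2.73 in the 2 comparisons of IL-2 and of -0.58 and -0.72 in those of PMA/I.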

How the data were processed

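The authors sequenced RNA of mouse CD4 T blasts in 12 libraries, 3 in each of 4 groups. Reads were trimmed with Trimmomatic 0.32, aligned to mm9 with HISAT2 2.1.0 and quantified on RefSeq models with StringTie 1.3.3 (versions from the submitters' processing notes). Per the file headers the deposited values are FPKM; the methods name TPM. Read counts were not used here, and FPKM sums were 193815 to 420487 per library.

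FPKM were turned into TPM (sum 1000000), 12442 genes were retained whose highest library exceeded 1 TPM, and libraries were brought to 1 common 75th percentile. The 4 groups were fitted together on log2(TPM + 1) by limma 3.58.1 under R 4.3.3, without trend or block, which left 8 residual degrees of freedom. The design had been written for TPM. P-values are two-sided and adjusted (Benjamini-Hochberg) over all genes retained. The pseudocount makes differences of low genes too small. The script was tested on simulated data. No 2 libraries held the same values (0% shared).

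The 2 libraries that go against their labels were placed by the study's expression table. Its columns matched 1 library each once TPM were quantile-normalized (all of 1391 genes within 0.1%). The methods name upper-quartile scaling, which the main fit used, and quantile normalization was an alternative. Under it 0 of the 10 genes were higher and 6 lower for TB+ IL-2 against TB IL-2, beside 1692 and 1952 of all genes, and 2 passed the interaction. Libraries of 1 replicate number deviated together from their group means (18 of 18 correlations over 0.1, from 0.101 to 0.531), so the numbers, taken from the labels, were used as a block in an alternative. Members and lists were chosen with earlier results of these data known. Named are all 10 members, up to 4 genes per list that passed with the largest change in TB IL-2 against TB IL-2nil, 9 further genes set by name, and the 3 genes most like each member. Alternatives changed the placement, pseudocount, filter, scaling, trend, groups fitted, block and libraries 1 at a time; list counts without the exchanged libraries were added after seeing the data. Genes named outside the rule were chosen after their values were seen. Coordinates of genes are GENCODE M1 on mm9; promoters are RefSeq on GRCm38.p6. Python 3.11.15 drew the figures.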

Additional observations from a re-analysis of the deposited data

Results flagged for a closer look

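For 9 genes of the lists, none of them among the 10 members, the effect of PMA/I differed between cells with and without IL-2 at an adjusted P under 0.05 (limma interaction). Of all genes, 1.57% passed as higher and 2.66% as lower. These calls depend on the scaling between libraries and on the placement. With no further scaling 0 of all 12442 genes were higher and 1 lower, and by the sample labels 0 passed. *Myc* had an interaction of -3.73 (adjusted P = 0.0209), rising by 2.63 in log2 with IL-2 and by 6.36 without it. For the feedback inhibitors *Cish* and *Socs1* it was -4.46 and -3.96 (adjusted P = 0.0108 and 0.0125), and for the kinase *Wee1* -2.45 (adjusted P = 0.0116). *Cdc6* had -1.78 (adjusted P = 0.0434) and *Pcna* -1.25 (adjusted P = 0.0333). The mean of *Cdc6* was only 1.19 TPM in TB IL-2nil and 0.307 TPM in TB+ IL-2nil. Its fall without IL-2 (-0.72, beside -2.50 with IL-2) was thus understated by the pseudocount of 1 TPM, and the size of its interaction depends on that pseudocount. In the E2F family it was -0.90 for *E2f3*, -1.39 for *E2f5* and -1.09 for *E2f6* (adjusted P = 0.0391, 0.0393 and 0.0362). Without both exchanged libraries *Cish* alone passed (adjusted P = 0.0403), and the other 8 had adjusted P-values of 0.061 to 0.128. *Pcna*, *E2f3*, *E2f5* and *E2f6* are named because their values were seen to differ.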

How the results depend on the processing

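Grouped by the sample labels, 0 of the 10 genes passed for TB IL-2 against TB IL-2nil, 2 for TB+ IL-2 against TB IL-2, 4 for TB+ IL-2nil against TB IL-2nil and 0 for TB+ IL-2 against TB+ IL-2nil, and 1 of 4 ratios in place of 2 separated TB IL-2 from TB IL-2nil, while a further ratio, of *Ccnd2* and *Ccnd3* to *Cdkn1b*, no longer did (33.8 in the library labelled TB IL-2nil replicate 3), as follows from exchanging the 2 libraries. Of all 12442 genes, 9 were higher and 6 lower by the labels in the first of these 4 comparisons. In the others 30 and 32, 239 and 430, and 23 and 4 were, in that order. Directions of differences that had not passed turned by the labels as well, for PMA/I without IL-2 at *Ccne2* (-0.33), *Cdk4* (-0.26) and *Cdk6* (-0.0451), and between the stimulated groups at *Cdkn1a* (-0.70) and *Cdkn1b* (1.36). With the 2 libraries left out, 3 genes passed between the stimulated groups (fewer samples, with 863 of all genes higher and 334 lower), and 4 with only those groups fitted (1015 and 488). Leaving out 1 library at a time gave 3 (without the library labelled TB IL-2nil replicate 3) to 7 there. The interaction was passed by 2 genes under quantile normalization, 1 with the replicate block, and 0 to 2 with 1 library left out (2 without TB+ IL-2nil replicate 3). The block, as the pairing of the replicates, otherwise changed the call of *Ccnd2* for IL-2 only.

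The remaining reversals concerned values near 0 that did not pass, and the cause was not tested. *Cdk4* with PMA/I and IL-2 was 0.00204 without a filter and 0.0987 under median-of-ratios scaling. *Ccne2* with PMA/I alone was -0.0355 with a minimum mean of 5 TPM, -0.36 with no further scaling and -0.35 to 0.34 with 1 library left out, and *Cdk4* was -0.30 with no further scaling. *Cdkn1b* between the stimulated groups was 0.0153, 0.33 and -0.53 to 0.27 in the same order. In the interaction *Ccne1* was 0.41 and *Cdk2* 0.0247 with a pseudocount of 0.1 TPM, *Cdk2* 0.35 and *Cdk4* 0.0742 with no further scaling, *Cdkn2c* -0.0141 under quantile normalization, and *Cdk2* -0.36 to 0.25 with 1 library left out. Levels under about 1 TPM, as of *Ccne1* in TB+ IL-2nil, depend on the pseudocount, and no read counts were used from which counting error could be had.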
